A study of Caenorhabditis elegans with 18 samples.

Results

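Transcript levels in Caenorhabditis elegans nhr-68 mutants given vitamin B12 were compared with those of wild type animals on the same diet, across all genes of the deposited table. The comparison rests on 4 of the 18 libraries, 2 per group, chosen by their labels. The wild type was strain N2, and the mutant was strain VC1527, which carries the allele gk708 of nhr-68. Each library came from about 3000 whole L4 animals raised from twice-synchronized L1 larvae and grown with 20 nM vitamin B12, and both groups share this supplement. The other libraries hold the same strains without B12 or with B12 and 40 mM propionate, and an nhr-10 mutant carrying tm4695 under the same 3 treatments. The labels do not say which part of nhr-68 is missing, nor whether the strain was outcrossed, so the deletion and the rest of the strain's background cannot be told apart. Nor do they call the replicates separate cultures, and the p-values therefore measure only how these samples scatter, which may be technical.

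NHR-68 is a nuclear hormone receptor, a kind of transcription factor that often responds to small molecules. Propionate, a product of the breakdown of odd-chain fatty acids and some amino acids, is toxic when it builds up. Animals break it down by a canonical route that needs B12 and, when B12 is low, by the B12-independent propionate shunt. NHR-10 and NHR-68 are known to turn on shunt genes in C. elegans when propionate persists, and B12 is known to keep the shunt low. On B12 alone the comparison therefore asks what the receptor does where the shunt is little used.

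Of 15575 genes with at least 1 FPKM (the fragments of a gene, corrected for its length and for the library's total) in at least 2 libraries, 818 were higher and 714 lower in the mutants. These 1532 genes make up 9.84% of those tested, 5.25% higher and 4.58% lower, at an adjusted p under 0.05 (limma on log2(FPKM + 1), Benjamini-Hochberg adjustment). At least 2-fold differences on that scale were seen for 641 of the higher and 509 of the lower genes. Leaving out 1 of the 4 libraries leaves a single library in its group, and fewer genes were called whichever library was left out. How much of that comes from lost replication and how much from single libraries was not tested. In all 4 such fits 138 of the 1532 genes were called, 125 higher and 13 lower. The nhr-10 mutants on B12, set against the same wild type libraries, gave 1507 calls, 1016 higher and 491 lower.

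**Figure D1:**
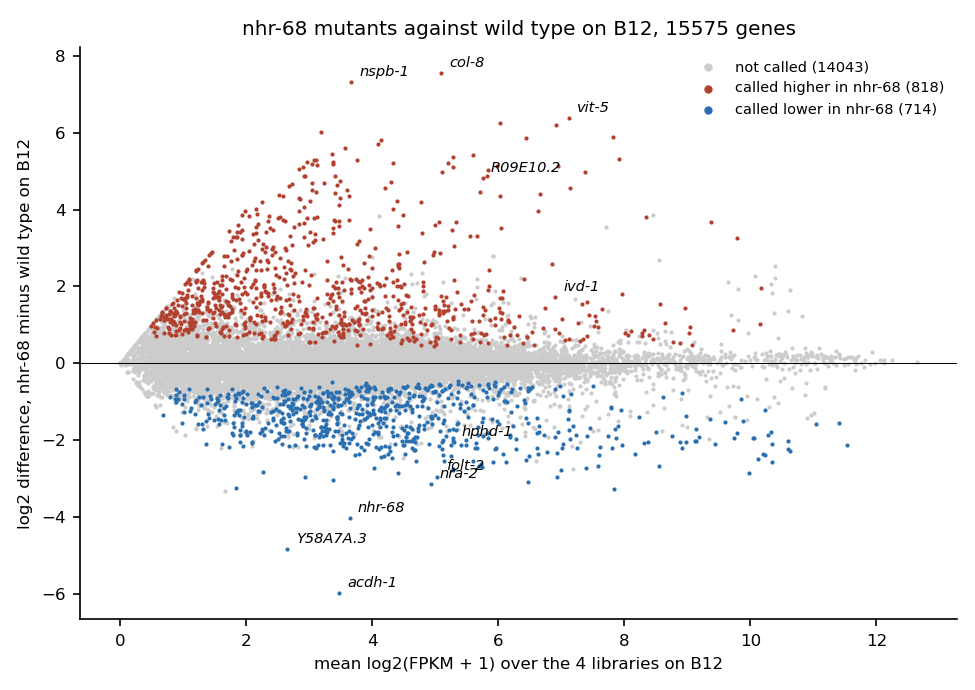
Each point is 1 of 15575 genes, with the mean log2(FPKM + 1) over the 4 libraries on B12 on the x axis and the log2 difference, nhr-68 minus wild type, on the y axis. Red points are the 818 genes called higher and blue points the 714 called lower, and acdh-1 lies lowest of all at -5.99.

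The 4 libraries also differed in genes known to change through larval development. On 2 principal axes drawn from 170 collagen, moulting and vitellogenin genes, which hold 60% and 28.2% of their variance, the wild type libraries on B12 sat at 13.7 and 17.2 on the first axis and the nhr-68 libraries at -15 and -11.6. The nhr-10 libraries on B12 sat at -17 and -5.18. When both axes entered the fit, an alternative added once the values were known, no gene was called in limma (696 at an unadjusted p under 0.05, smallest adjusted p 0.0606). The median absolute log2 difference of the 1532 genes was 1.43 without the axes and 0.52 with them, while the median SE grew from 0.323 to 0.599, and 713 of the 1532 kept their sign. The first axis separates the wild type and nhr-68 libraries on B12 completely, so in these 4 libraries genotype and position on it cannot be told apart. Both axes are called developmental below only after the genes they were drawn from. Whether they follow developmental stage was not tested, and all animals were labelled L4. Samples were bulk animals, so fewer cells of a type and less RNA per cell cannot be told apart either.

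**Figure D2:**
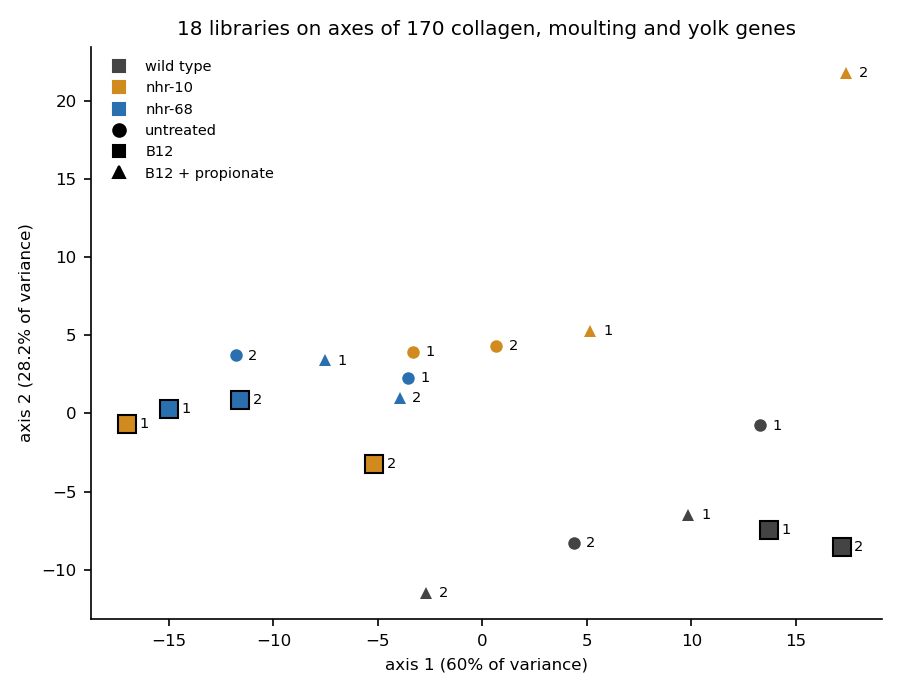
Each of the 18 libraries is placed by its score on axis 1 (x) and axis 2 (y) of 170 collagen, moulting and yolk genes, with colour for genotype, shape for treatment and a digit for the replicate. On B12 the wild type squares sit at 13.7 and 17.2 on axis 1, while the nhr-68 squares sit at -15 and -11.6.

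The deleted gene, nhr-68, lies on chromosome V from 11573440 to 11575709 (WBcel235, as are all positions here). It stood at 48.69 and 50.37 FPKM in wild type and at 1.71 and 2.49 in the mutants. In the nhr-10 mutants on B12 it was low too, at 5.18 and 13.06 FPKM. A low level alone therefore does not tell the mutant strains apart. Between nhr-68 mutants and wild type the difference was -4.04 ± 0.381 (log2, SE; adjusted p = 0.000193). nhr-10, the partner receptor of the shunt, read 19.78 and 12.23 FPKM in wild type against 20.36 and 18.64, a log2 difference of 0.30 that missed the threshold (adjusted p = 0.593). None of the other 9 listed regulators was called. The closest was nhr-114, a receptor known for protecting animals when B12 is short, at 29.45 and 49.52 FPKM against 13.13 and 29.54 (adjusted p = 0.1), with overlapping groups. Its difference of -0.92 moved with the mutant library left out, to -1.47 without nhr-68 replicate 2 (adjusted p = 0.0322) and to -0.36 without replicate 1. nhr-49, which drives fatty acid oxidation genes, differed by 0.32 (adjusted p = 0.168).

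Of the 5 shunt genes, 3 were called lower on B12 (60%, against 4.58% of all genes) and none higher, with a list median of -0.87 against 0.004 over all genes. acdh-1 (chromosome I, 6497436 to 6499560), the acyl-CoA dehydrogenase that takes the first step of the shunt, stood at 65.45 and 116.05 FPKM in wild type and at 0.42 and 0.36 in the mutants. The groups lay far apart, and the difference of -5.99 ± 0.315 (adjusted p = 6.22e-07) was the largest fall among the 714 lower genes. It passed with each library left out. acdh-2, a related acyl-CoA dehydrogenase gene named after its values were seen, read 1.64 and 0.17 FPKM in wild type and 0.66 and 1.81 in the mutants. How far reads are shared between these genes was not tested, but neither gene passed 1.81 FPKM in the mutants on B12.

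hphd-1 (chromosome II, 12994354 to 12996571) encodes the dehydrogenase of 3-hydroxypropionate further down the shunt. Its levels were 79.25 and 78.55 FPKM in wild type against 17.37 and 18.98, a difference of -2.06 ± 0.238 (adjusted p = 0.00077) that passed with each library left out. ech-6, the enoyl-CoA hydratase (chromosome III, 9751552 to 9752883), stood at 176.95 and 172.76 FPKM against 97.49 and 93.25. It fell by 0.87 ± 0.179 (adjusted p = 0.0122) and missed the threshold whenever a library was left out. hach-1, the hydrolase that follows it (chromosome III, 5555450 to 5557318), read 69.84 and 64.46 FPKM against 45.85 and 45.81, without overlap but short of the threshold (-0.54, 95% interval -1.02 to -0.06, adjusted p = 0.143). alh-8, the last dehydrogenase (chromosome II, 11729055 to 11731198), read 278.82 and 317.29 FPKM against 317.63 and 334.33 (0.13, interval -0.16 to 0.42). With the developmental axes as covariates, acdh-1 differed by -4.45 (adjusted p = 0.0888) and hphd-1 by -1.13 (unadjusted p = 0.0131, adjusted p = 0.979). There ech-6 differed by -0.38 (adjusted p = 0.999), while hach-1 and alh-8 changed sign near 0.

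**Figure D3:**
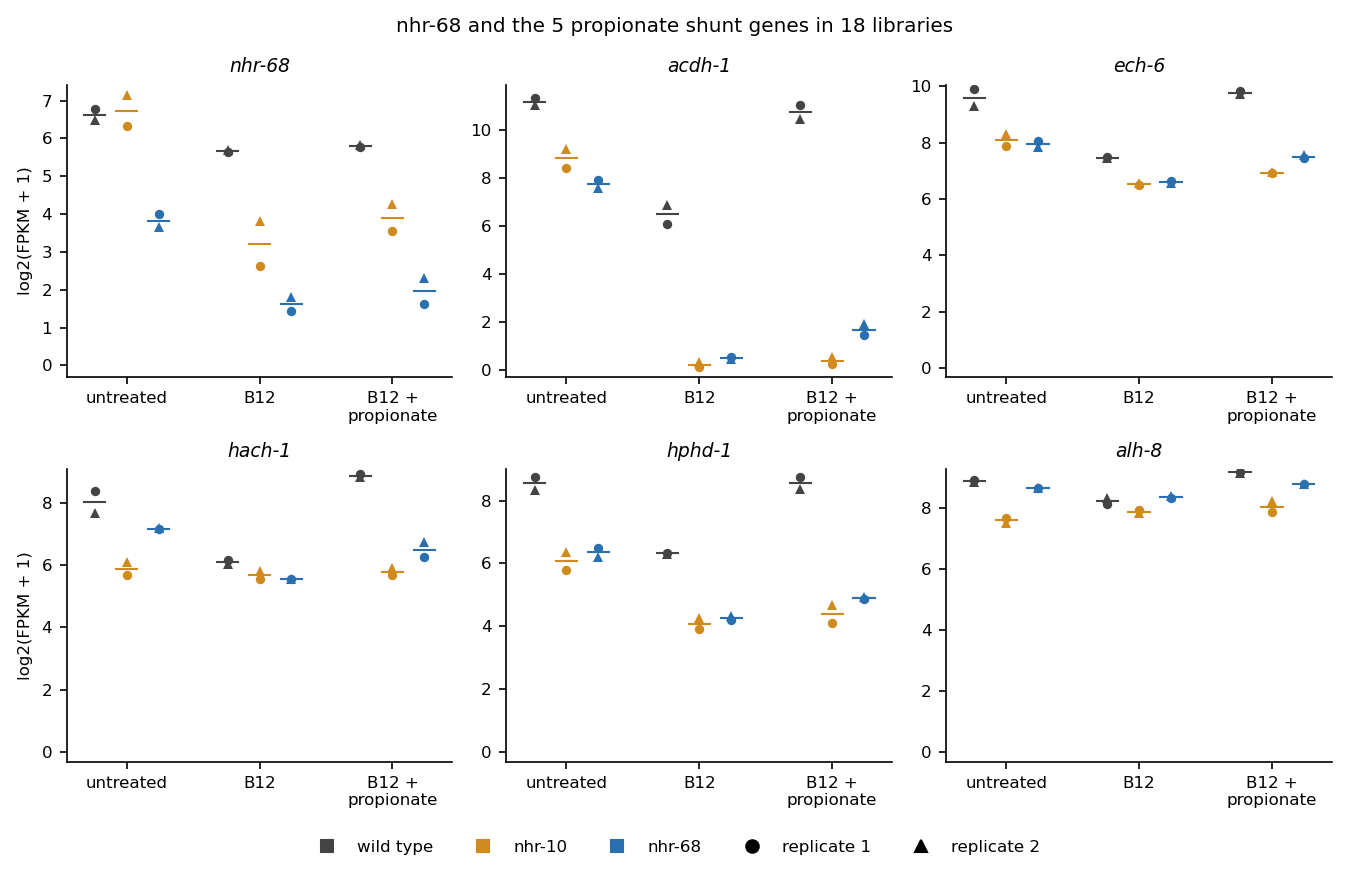
Each panel shows log2(FPKM + 1) of 1 gene (y axis) in all 18 libraries by treatment (x axis) and genotype (colour), with symbols for replicates and short lines for group means. On B12 the nhr-68 libraries hold acdh-1 at 0.42 and 0.36 FPKM against 65.45 and 116.05 in wild type, while alh-8 lies at like heights.

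dhgd-1, named here after its values were seen, encodes the dehydrogenase of D-2-hydroxyglutarate, a by-product of the HPHD-1 reaction. It stood at 72.96 and 61.11 FPKM in wild type and at 20.09 and 18.69 in the mutants, without overlap. It fell by 1.73 ± 0.223 (adjusted p = 0.00114), and it passed with each library left out. Without B12 the same contrast gave -1.21, and with propionate -2.41.

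Compared with the other treatments, shunt differences on B12 were not set apart by a test of the difference itself. acdh-1 differed between mutant and wild type by -3.43 without B12, by -5.99 on B12 and by -9.07 on B12 with propionate. Wild type held 2548.59 and 2058.19 FPKM of it without B12 and 2070.33 and 1397.17 with propionate, against 237.43 and 187.44, and 1.68 and 2.75, in the mutants. Its relative acdh-2 stood at 149.53 and 165.95 FPKM without B12 and at 86.03 and 229.25 with propionate in the mutants. Wild type held 16.18 and 22.87, and 52.28 and 54.63, of acdh-2. In the nhr-10 mutants without B12, acdh-1 stood at 333.51 and 590.58 FPKM and acdh-2 at 0.08 and 0. How far reads are shared between these genes was not tested. For acdh-1 the difference on B12 minus that without B12 was -2.55 ± 0.446 (adjusted p = 0.146), and minus that with propionate 3.08 ± 0.446 (adjusted p = 0.0586). hphd-1 gave -2.19, -2.06 and -3.64 in the same order, ech-6 gave -1.64, -0.87 and -2.27, and hach-1 gave -0.85, -0.54 and -2.37. In the nhr-10 mutants on B12, whose comparison shares the wild type libraries, acdh-1 stood at 0.07 and 0.25 FPKM. Set directly against them, nhr-68 mutants differed by 0.26 in acdh-1 (interval -0.42 to 0.95) and by 0.17 in hphd-1, and neither was called.

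None of the 7 genes of the canonical B12-dependent route was called, and their differences ran from -0.32 in pcca-1 to 0.29 in cblc-1 around a median of -0.19. pcca-1, a subunit of propionyl-CoA carboxylase, read 125.6 and 149.23 FPKM in wild type against 101.27 and 117.57 in the mutants. Of 19 genes of the methionine and S-adenosylmethionine cycle, the other process that uses B12, 1 was called higher (5.26%) and 2 lower (10.5%). Over all genes 5.25% were called higher and 4.58% lower. folt-2, which encodes a folate transporter, stood at 81.73 and 99.09 FPKM in wild type, at 9.55 and 12.04 in the nhr-68 mutants and at 4.99 and 5.91 in the nhr-10 mutants. It fell by 2.96 ± 0.2 against wild type (adjusted p = 7.96e-06) and passed with each library left out. The same contrast gave -1.17 without B12 and -2.14 with propionate, and all 3 were called.

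dao-3, a predicted folate-cycle dehydrogenase, read 72.01 and 66.06 FPKM in wild type against 18.35 and 28.43 (-1.55, adjusted p = 0.017). pmt-1, the methyltransferase that begins phosphatidylcholine synthesis from phosphoethanolamine, read 143.48 and 87.25 FPKM against 283.24 and 251.12 (1.25, adjusted p = 0.013). Neither pair of groups overlapped, but dao-3 lost its call in 3 of the 4 fits without a library and pmt-1 in 2. With the developmental axes both changed sign, to 0.74 and -0.30. metr-1, the B12-dependent methionine synthase, was named after its values were seen, and it read 32.41 and 31.95 FPKM against 31.65 and 33.37.

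A small set of genes set the nhr-68 strain apart whatever the treatment. In all 3 treatments 105 genes, 0.674% of those tested, were called in the same direction against wild type, 71 higher and 34 lower. Of these, 14 were also called that way against the nhr-10 mutants on B12, 6 higher and 8 lower. In all 14 the 6 nhr-68 libraries did not overlap the 12 other libraries, as in 1.1% of all genes tested, but the calls that chose the 14 fix most of that separation. The count of 105 became 10 with only the compared groups in each fit and 20 to 109 without 1 library, and with the developmental axes as covariates no gene was called against wild type on B12. Against the nhr-10 mutants 10 of the 14 were still called with those axes. Of the 14, 2 carry the symbol mpst-6 and the same values in every library, so their reads cannot be told apart.

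nra-2 encodes a protein of the endoplasmic reticulum known for its part in acetylcholine receptor assembly (chromosome I, 9620227 to 9622377). It stood at 93.38 and 86.67 FPKM in wild type on B12 and at 8.49 and 9.92 in the mutants, and it held 8.49 to 12.13 FPKM over all 6 nhr-68 libraries against 80.89 to 100.23 over the other 12. Its difference on B12, -3.16 ± 0.127, had the smallest adjusted p of any gene (6.92e-08). Y58A7A.3 (chromosome V, 5077854 to 5080903) held 0.08 to 1.25 FPKM in the nhr-68 libraries against 19.18 to 55.32 in the others, and on B12 it differed by -4.84 ± 0.302 (adjusted p = 3.68e-06).

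R09E10.2 (chromosome IV, 10317563 to 10318299) went the other way. It stood at 11.76 and 7.02 FPKM in wild type on B12 and at 279.42 and 292.67 in the mutants, a difference of 4.83 ± 0.221 (adjusted p = 1.65e-07). Over all treatments its nhr-68 libraries held 200.7 to 292.67 FPKM and the others 7.02 to 23.66. aagr-3, a predicted alpha-glucosidase of chromosome V, held 133.58 to 149.81 FPKM against 71.75 to 85.95.

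ivd-1, the isovaleryl-CoA dehydrogenase of leucine breakdown (chromosome IV, 5086856 to 5088864), stood at 62.74 and 67.07 FPKM in wild type on B12 and at 224.33 and 210.63 in the mutants. It rose by 1.73 ± 0.148 (adjusted p = 9.39e-05) and held 210.63 to 388.59 FPKM over the 6 nhr-68 libraries against 51.44 to 84.67. Its neighbours, looked at after these values were seen, lay at raised levels too. Within 20 kb of ivd-1, 9 genes were tested, and the 4 in a row from pygo-1 to C02B10.4 (5083303 to 5092807) were each called higher in all 3 treatments. pygo-1, a homologue of the Wnt pathway gene pygopus, overlaps the end of ivd-1 and held 76.77 to 92.55 FPKM against 23.87 to 38.26. snpn-1 held 67.54 to 115.74 against 17.32 to 47.86, and C02B10.4 held 103.62 to 115.08 against 44.39 to 71.14. The other 5 genes of the window were not called on B12, and their ranges overlapped. Reads of pygo-1 and ivd-1 in their overlap may be shared, since the use of strand is not given in the sources used here.

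**Figure D4:**
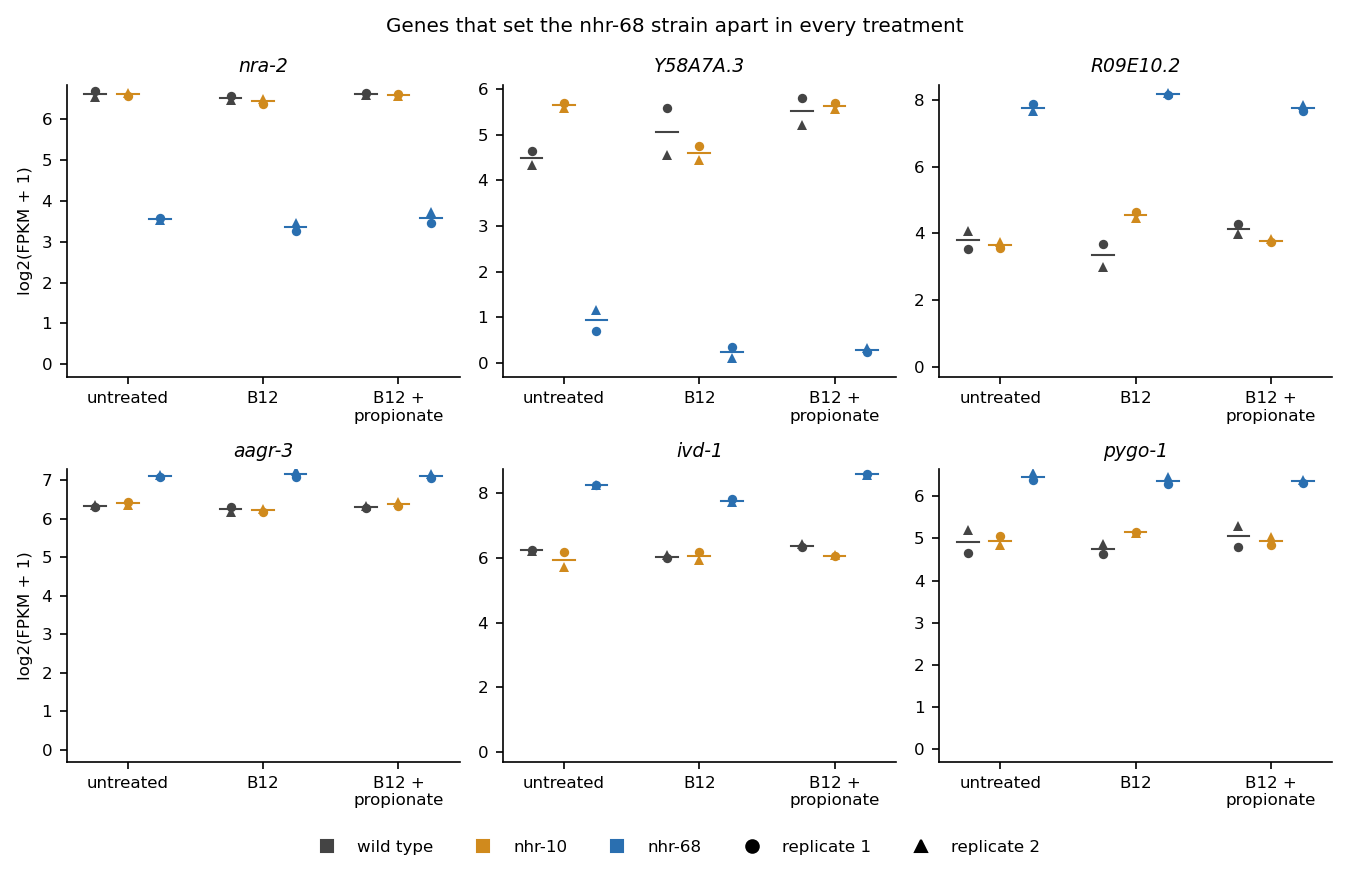
Each panel shows log2(FPKM + 1) of 1 gene (y axis) in all 18 libraries by treatment (x axis) and genotype (colour), with symbols for replicates and short lines for group means. In every treatment the nhr-68 libraries lie below the rest in nra-2 and Y58A7A.3 and above them in R09E10.2, aagr-3, ivd-1 and pygo-1.

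Of the 170 cuticle, moulting and yolk genes behind the axes 71 were called, 41.8% against 9.84% of all genes, and 10 of the 71 were called in all 4 fits without a library. Of 147 cuticle collagens, 25 were called higher (17%) and 35 lower (23.8%), where 5.25% and 4.58% of all genes were, and the median was -0.15. col-8 stood at 2.15 and 0.96 FPKM in wild type and at 571.34 and 381.74 in the mutants, a difference of 7.56 ± 1.16 (adjusted p = 0.0031). col-149 went from 7.07 and 5.66 to 365.53 and 272.73 FPKM. Both passed with any 1 library left out. In the nhr-10 mutants on B12 col-8 stood at 908.16 and 121.54 FPKM. Against wild type on B12 the nhr-10 mutants had 25 collagens called higher and 30 lower, where 1016 and 491 of all 15575 genes were. No collagen was called between the mutants.

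Of 6 vitellogenins, the yolk proteins made in the intestine of adults, 4 were called higher (66.7%, against 5.25% of all genes) and none lower. Their summed level was 819 and 629 FPKM in wild type and 9650 and 7510 in the mutants. vit-5, whose copies vit-3 and vit-4 are near-identical, stood at 33.19 and 5.72 FPKM against 1465.35 and 1101.51 (6.39 ± 1.44, adjusted p = 0.017), and it was called in 1 of the 4 fits without a library. Of 20 moulting genes, 5 were higher (25%) and 3 lower (15%), where 5.25% and 4.58% of all genes were. fbn-1, a fibrillin-like protein of the apical matrix, stood at 0.41 and 0.5 FPKM against 4.72 and 7.62, while dpy-5, a protease that processes collagen, stood at 2447.25 and 2959.59 against 554.03 and 708.06.

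Small secreted peptides and hedgehog-related genes, lists chosen after their values were seen, held many calls too. Over all genes 5.25% were called higher and 4.58% lower. Of 12 nspb genes 11 were higher (91.7%), and their sum was 24.7 and 8.34 FPKM in wild type against 506 and 650 in the mutants. nspb-1 was listed at 0 in both wild type libraries and at 151.9 and 166.93 FPKM in the mutants. Of 25 fipr genes 13 were higher (52%) and none lower. Of 43 hedgehog-related genes 7 were higher (16.3%) and 9 lower (20.9%), among them wrt-4 at 348.4 and 330.01 FPKM in wild type against 35.59 and 51.26. In the nhr-10 mutants against the same wild type libraries, 11 nspb and 13 fipr genes were called higher. Of the hedgehog-related genes 7 were higher there and 8 lower. In that comparison 1016 of all 15575 genes were called higher and 491 lower. Beside all of these groups stand the axis scores of the libraries, whose part in the result was not tested apart from genotype.

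Of 18 oocyte and germline genes 5 were called higher, 27.8% against 5.25% of all genes, and none lower, with a median of 1.15 that became -0.29 with the axes. None of the 5 was called in all 4 fits without a library. puf-5, an RNA-binding protein of oocytes, stood at 9.83 and 10.18 FPKM in wild type and at 53 and 34.11 in the mutants. Its difference was 1.98 without the axes and 0.13 with them. Of 99 sperm genes 13 were higher (13.1%) and 1 lower (1.01%), and none of these 14 was called in all 4 fits without a library. Without B12 the sperm list gave 1 higher and 20 lower, where 2.44% and 3.58% of all genes were so called. With propionate it gave 0 and 18, beside 1.18% and 1.95% of all genes. Whether the list differs between treatments was not tested. The msp genes that fill much of this list are near-identical, so their separate values are uncertain. In the nhr-10 mutants against wild type on B12, 8 oocyte and germline genes and 24 sperm genes were called higher, and none lower. That comparison called 1016 of all 15575 genes higher and 491 lower.

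**Figure D5:**
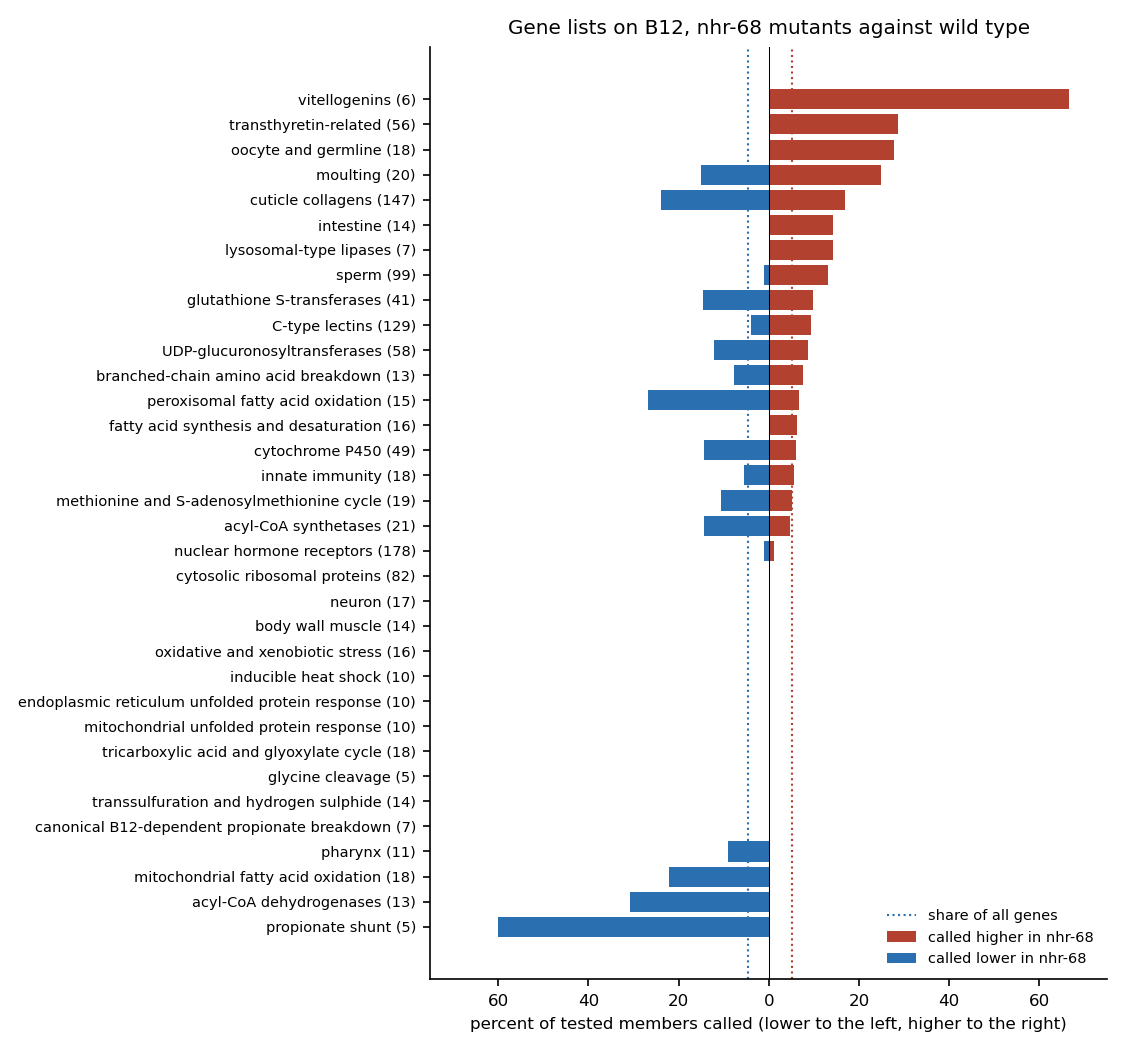
Bars give the percent of tested members of each of 34 lists called higher (red, to the right) or lower (blue, to the left) in nhr-68 mutants on B12, with the number tested in brackets, and dotted lines mark 5.25% and 4.58%, the shares of all genes. The regulators and the lists chosen after their values were seen, nspb among them, are not drawn. Among the lists drawn the vitellogenins reach farthest to the right with 4 of 6 called, and the propionate shunt farthest to the left with 3 of 5.

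Of 18 mitochondrial fatty acid oxidation genes 4 were called lower, 22.2% against 4.58% of all genes, and none higher, with a median of -0.38 that became -0.05 with the developmental axes. cpt-4, a carnitine palmitoyltransferase-like gene, stood at 80.16 and 60.85 FPKM in wild type against 19.78 and 21.36 (-1.72 ± 0.276, adjusted p = 0.00393), and it passed with each library left out. Its differences in the other treatments, -0.28 without B12 and -0.52 with propionate, were not called, but the difference between treatments missed the threshold (adjusted p = 0.585 and 0.355). acdh-12, cpt-5 and acdh-10 were the other 3, and they differed by -0.61, -0.77 and -0.67. Their calls did not all hold without 1 library, where the differences ran from -0.69 to -0.53, -0.99 to -0.55 and -0.73 to -0.60. With only the compared groups acdh-12 and cpt-5 missed the threshold (adjusted p = 0.0559 and 0.0955). With the axes cpt-4 differed by -0.50 and acdh-10 by 0.20.

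Of 15 peroxisomal genes 4 were lower (26.7%) and 1 higher (6.67%), where 4.58% and 5.25% of all genes were. None of these 5 was called in all 4 fits without a library. acox-1.4 fell from 49.51 and 52.19 FPKM to 21.2 and 24.73, and its relative acox-1.5 rose from 22.11 and 21.36 to 60.61 and 56.79. Both encode acyl-CoA oxidases. acs-20 and acs-22, acyl-CoA synthetases of the FATP kind, were among 3 of 21 synthetases called lower (14.3%). acs-20 stood at 59.21 and 62.41 FPKM against 11.32 and 15.78. pod-2, the acetyl-CoA carboxylase that begins fatty acid synthesis, was the 1 of 16 synthesis and desaturation genes that was called (6.25%, against 9.84% of all genes). It rose by 1.42 (adjusted p = 0.0159), from 23.85 and 27.93 FPKM to 77.18 and 65.11. It was called in 1 of the 4 fits without a library, and with the axes acox-1.4, acs-20, acs-22 and pod-2 changed sign.

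In the detoxification families calls went both ways, where 5.25% of all genes were higher and 4.58% lower. Of 49 cytochrome P450 genes 3 were higher (6.12%) and 7 lower (14.3%). Of 58 UDP-glucuronosyltransferases 5 were higher (8.62%) and 7 lower (12.1%), and of 41 glutathione S-transferases 4 were higher (9.76%) and 6 lower (14.6%). In each family 1 called member was called in all 4 fits without a library. cyp-13A2 stood at 5.04 and 3.92 FPKM in wild type and at 17.4 and 18.96 in the mutants (1.81, adjusted p = 0.00114), while gst-13 fell from 258.65 and 178.69 to 83.08 and 96.99. Of 56 transthyretin-related genes, small secreted proteins, 16 were higher (28.6%) and none lower, 7 of them in all 4 fits without a library, and ttr-8 went from 3.55 and 1.26 FPKM to 35.09 and 29.74. Of 129 C-type lectins 12 were higher (9.3%) and 5 lower (3.88%). Of 178 nuclear hormone receptors 4 were called, 2.25% against 9.84% of all genes. Besides nhr-68 these were nhr-7, which rose from 0.74 and 0.37 FPKM to 5 and 4.35, nhr-232, which was higher, and nhr-41, which was lower. In the nhr-10 mutants against wild type on B12, 17 transthyretin-related genes were called higher and none lower, where 1016 and 491 of all 15575 genes were.

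No member was called among 14 transsulfuration genes, 5 of glycine cleavage, 18 of the tricarboxylic acid and glyoxylate cycle, 10 of the unfolded protein response of mitochondria and 10 of that of the endoplasmic reticulum, 10 heat shock, 16 oxidative stress, 14 body wall muscle, 17 neuron and 82 cytosolic ribosomal protein genes. The medians of these lists lay between -0.94 and 0.12, the lowest for heat shock. There wild type replicate 1 stood apart in hsp-16.2, a gene named after its values were seen. It read 76.05 FPKM against 0 in wild type replicate 2 and 1.63 and 4.11 in the mutants. Of 14 intestine markers 2 were higher, act-5 and ifb-2 of the brush border, and of 11 pharynx markers 1 was lower. These shares were 14.3% and 9.09%, where 5.25% of all genes were higher and 4.58% lower, and the lists are too short to judge a share. With the developmental axes act-5 and ifb-2 each differed by 0.15, the pharynx marker changed sign, and none was called.

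Most genes called on B12 had the same sign in the other treatments. The 3 comparisons of nhr-68 with wild type have separate libraries in their group means but share the strains. They also share each gene's estimate of scatter, taken from all 18 libraries, so their calls are not independent. Without B12 938 genes were called (6.02%) and with propionate 488 (3.13%). In the same direction 344 genes were called both on B12 and without it, 22.5% of the former and 36.7% of the latter, and 142 both on B12 and with propionate, 9.27% and 29.1%. Of the 1532 genes called on B12, 1491 had the same sign without B12 and 1410 with propionate. The share of like signs over all genes tested was not computed. The median absolute difference of the 1532 was 1.43 on B12, 0.9 without it and 0.58 with propionate, and since they were chosen on B12 the first of these is raised by the choice. On the first developmental axis, wild type sat at 13.3 and 4.37 without B12 and at 9.86 and -2.7 with propionate. The nhr-68 libraries sat at -3.55 and -11.8, and at -7.53 and -3.96. The part of this axis in the like signs was not tested.

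Few genes passed a test of the difference between treatments. Against the untreated contrast 1 gene, C09B8.4, was called, 0.00642% of those tested, and 887 had an unadjusted p under 0.05. Against the propionate contrast none was called in limma, with 1775 at an unadjusted p under 0.05 and a smallest adjusted p of 0.0586, for acdh-1. That count reached 44 without wild type replicate 1 on propionate and was 0 to 1 without any other library. Between nhr-68 and nhr-10 mutants on B12, 22 genes were called (0.141%), 8 higher in nhr-68 (0.0514%) and 14 lower (0.0899%), with 880 at an unadjusted p under 0.05. Leaving out a library gave 8 to 12 calls, 11 and 12 without nhr-10 replicates 1 and 2 and 8 without either nhr-68 replicate.

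Over the nuclear chromosomes the share of tested genes that were called ran from 6.43% on I to 15.4% on X, where 162 were higher and 169 lower, with 11.4% on V. None of 12 mitochondrial genes was called. Within 1 Mb of nhr-68 on V, 44 of 390 genes (11.3%) were called, 29 higher and 15 lower. The nearest of them, duo-1, read 5.47 and 5.91 FPKM in wild type against 9.22 and 8.35.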

How the data were processed

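RNA was sequenced from whole L4 animals in 18 libraries, 2 for each of 3 genotypes under 3 treatments. The authors deposited 1 table of FPKM values for 20953 genes, replicates apart. HISAT, Bowtie2 and RSEM on WBcel235 are named in the submitters' processing notes, and versions, settings and strand use were not given in the sources used here. Reads that similar genes share are split between them by an estimate in RSEM, and FPKM is relative to the library's total, so a shift in abundant genes moves the others. Depth is not recorded as counts. It was estimated from the FPKM step of low genes, with 30 bp taken off gene lengths. On B12 this implies about 12800000 and 12600000 fragments for wild type, and 14000000 and 14100000 for nhr-68. Over all treatments the nhr-68 libraries lay at 13800000 to 14100000 and the others at 12600000 to 13200000. How this bears on the strain differences was not tested. In the 4 compared libraries 1 fragment on a 1 kb gene is worth 0.0709 to 0.0794 FPKM. Their totals were 857796.2 to 918133 FPKM.

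Symbols and coordinates came from the Ensembl annotation of WBcel235 (208 identifiers not found). Genes with at least 1 FPKM in 2 libraries were kept, and limma 3.58.1 (R 4.3.3) modelled log2(FPKM + 1) with a mean for each of 9 groups and an intensity trend (9 residual and 3.6 prior degrees of freedom), adjusted by Benjamini-Hochberg over 15575 genes. A log2 difference on this scale understates changes of low genes. Data were simulated with separate noise for each gene, and only genes with a mean above 2 on this scale were changed. Of these, 60 of 100 changed by 2-fold and 91 of 100 changed by 4-fold were recovered, with 7 false calls. No axis shared between genes was simulated, so these figures do not give the error in the deposited data. Alternatives were a pseudocount of 0.1, no filter, median-ratio scaling, only the compared groups, the replicate number as a block, each library left out, and, added after seeing the data, 2 axes of collagen, moulting and vitellogenin genes as covariates.

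Genes named are the regulators, both propionate lists, the 12 largest rises and falls without overlap, up to 4 members per list, up to 8 genes alike in all treatments or between contrasts, and up to 6 near nhr-68, of which a part is printed; others are said to be chosen after their values were seen. All members and lists were chosen with earlier results of these data known. No sequence was used here.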

Additional observations from a re-analysis of the deposited data

Results flagged for a closer look

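C09B8.4 (chromosome X, 6018442 to 6019936) was the 1 gene whose difference between nhr-68 mutants and wild type differed between B12 and no B12 in a test of that difference. Without B12 the mutants held 77.21 and 81.01 FPKM and wild type 3.68 and 4.46. On B12 the mutants held 0.08 and 0.91 and wild type 0.73 and 1.11, with overlapping groups. The difference of differences was -4.40 ± 0.375 (95% interval -5.21 to -3.59, adjusted p = 0.00059, limma). With propionate added to B12 it stood at 61.22 and 96.79 in the mutants and at 27.53 and 27.83 in wild type, and in the nhr-10 mutants no library passed 0.26 FPKM. The test missed the threshold with a pseudocount of 0.1 (adjusted p = 0.161) and with only the compared groups (adjusted p = 0.0591).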

How the results depend on the processing

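The count of 1532 genes stayed within 1.5 times under a pseudocount of 0.1, no filter, median-ratio scaling and only the compared groups (1182 to 1826), and fell to 181 to 773 without 1 library and to 0 with the developmental axes. Members of the lists called went from 186 to between 33 and 112 without a library and to 0 with the axes. Genes called alike in all 3 treatments, 105, numbered 10 with only the compared groups, 0 with the axes and 20 to 109 without a library. The single gene that differed between B12 and no B12 became 0 with a pseudocount of 0.1 or only the compared groups, 7 without a filter, 5 with median-ratio scaling and 1 to 2 without a library. The 0 genes that differed from propionate became 3 without a filter, 2 with the axes and 0 to 44 without a library. The 22 genes between nhr-68 and nhr-10 became 3 with only the compared groups and 8 to 12 without a library. Fits of only the compared groups hold fewer libraries. Fits without 1 library leave a single library in a group, and how much of their lower counts comes from that was not tested. For the others the cause was not tested.

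The replicate numbers were not taken to pair the libraries: the correlation of deviations was 0.0711 between the groups compared on B12 and 0.432 between nhr-68 and nhr-10 on B12, and it passed 0.1 in 15 of the 36 pairs of groups (-0.379 to 0.563). With the replicate number as a block, 1654 genes were called on B12, 1 and 2 in the 2 differences between treatments, 25 against nhr-10, 134 alike in all 3 treatments and 196 in the lists, and no call of the 53 genes named in the text changed.

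With the axes as covariates 32 of those 53 kept their sign but lost their call, and 16 changed sign: nhr-114 to 0.04, alh-8 to -0.08, hach-1 to 0.05, pcca-1 to 0.11, wrt-4 to 0.82, pmt-1 to -0.30, dao-3 to 0.74, acdh-10 to 0.20, acox-1.4 to 0.15, pod-2 to -0.82, dpy-5 to 1.43, ttr-8 to -0.01, acs-20 to 0.67, acs-22 to 0.22, C09B8.4 to 0.22 and metr-1 to -0.41. Without 1 library at a time nhr-10 ranged from -0.02 to 0.63, acdh-2 from -0.29 to 0.88 and hsp-16.2 from -4.39 to 1.87, and metr-1 fell as low as -0.02. Without 1 library at a time nhr-114 ranged from -1.47 to -0.36. The table gives no counts, so how depth limits low genes was not tested.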
